A study of Mus musculus with 10 samples.

Results

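Desmin is the intermediate filament protein that rings the Z-discs of the muscle fibre and ties them to each other, to the nuclei and to the sarcolemma. Here the transcripts of 10 regulators that couple the state of actin and of mechanical tension to transcription were followed in muscle lacking desmin. They are Yap1, Wwtr1 (which encodes TAZ), the TEAD factors Tead1, Tead2, Tead3 and Tead4, the TEAD and YAP partners Vgll3 and Amotl2, the serum response factor gene Srf, and Abra, which encodes STARS. The rule names the members by gene and uses no measured value, although earlier results of these data were known when they were chosen. They are 10 of the 54232 genes listed for the series, and all 10 lay above the expression limit used for testing, together with 14289 genes in all.

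RNA was taken from the gastrocnemius muscle of mice aged 3 months per the labels and methods, while other passages of the study name gastrocnemius and plantaris together. The 5 DesKO mice carried the genotype Des -/- and the 5 DesWT mice, their littermates, Des wt/wt. Both groups were of the strain B6J.129Sv-Destm1Cba/Cscl. The knock-out was not confined to muscle fibres, so that in DesKO vessels and all other cells of the tissue carried the allele too. The sources describe no treatment. The values are regularized log (rlog) expression values, a log2 scale on which sequencing depth has been levelled and the differences of weakly expressed genes have been drawn towards 0. A difference of 1 rlog unit stands for a 2-fold difference on this shrunken scale.

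YAP and TAZ are coactivators without DNA binding of their own. The Hippo kinases phosphorylate them and hold them in the cytoplasm, and when they enter the nucleus they bind TEAD factors on a short element known in muscle as M-CAT. Vestigial-like proteins such as VGLL3 bind the same surface of the TEADs, and angiomotins such as AMOTL2 bind YAP and keep it at junctions and on actin. SRF binds the CArG box of cytoskeletal, sarcomeric and immediate-early genes. Its cofactors of the MRTF family are held by monomeric actin, and STARS, an actin-binding protein of striated muscle, favours their entry into the nucleus. YAP, TAZ and MRTF are controlled mainly by where the protein lies in the cell, which transcript levels do not measure.

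The stretch of 250 bases before the transcription start site, as RefSeq gives it on GRCm38.p6, was matched for 7 of the 10 genes, in 10 windows. No window was matched for Tead1, Tead4 and Abra. The windows of 3 genes are printed because they hold the letters that SRF or the TEADs are known to recognise. Each is given 5′ to 3′ on the gene's strand, with the element in capitals: CArG boxes in Srf (chr17:46556163-46556412, minus strand) and M-CAT elements in Yap1 (chr9:8004597-8004846, minus strand) and Vgll3 (chr16:65814939-65815188, plus strand).
Srf: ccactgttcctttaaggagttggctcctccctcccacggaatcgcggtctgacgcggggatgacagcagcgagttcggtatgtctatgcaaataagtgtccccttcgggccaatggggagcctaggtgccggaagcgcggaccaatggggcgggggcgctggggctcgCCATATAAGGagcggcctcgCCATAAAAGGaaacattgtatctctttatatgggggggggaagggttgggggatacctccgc
Yap1: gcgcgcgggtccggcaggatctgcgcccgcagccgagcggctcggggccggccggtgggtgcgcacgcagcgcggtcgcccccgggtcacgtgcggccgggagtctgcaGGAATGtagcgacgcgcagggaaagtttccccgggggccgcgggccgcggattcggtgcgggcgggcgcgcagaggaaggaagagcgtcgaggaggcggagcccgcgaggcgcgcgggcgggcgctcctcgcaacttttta
Vgll3: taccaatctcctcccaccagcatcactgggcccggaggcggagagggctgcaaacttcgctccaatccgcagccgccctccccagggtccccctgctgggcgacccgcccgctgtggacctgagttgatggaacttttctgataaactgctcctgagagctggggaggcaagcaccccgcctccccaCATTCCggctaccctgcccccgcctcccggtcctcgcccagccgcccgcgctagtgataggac

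The Srf window held a pair of CArG boxes, which begin 82 and 62 bases before the start site. It was the only one of the 7 genes with a CArG box, an element that 1.47% of 32851 mouse promoter windows of the same length held. The M-CAT letters CATTCC, searched on both strands (GGAATG on the other), stood in the windows of 5 of the 7 genes, namely Yap1, Wwtr1, Tead3, Vgll3 and Amotl2. In Yap1 the element begins 141 bases, in Vgll3 63 bases and in Amotl2 65 bases before the start site. These letters occurred in 12.6% of all windows. That share is per window, whereas 5 of 7 is a count of genes, and Tead3 and Wwtr1 had several windows each. A match is a description of the letters, and binding was not measured.

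Des itself separated the genotypes. Its rlog value was 11.76 to 11.89 in the 5 DesKO mice and 16.10 to 17.74 in the 5 DesWT mice, a difference of -4.73 (SE 0.25, limma adjusted p = 1.538e-07). The DesKO values of Des stayed well above the expression limit, and what this remaining signal stands for was not tested. DesWT mouse 3 stood apart from the other libraries. Over all tested genes its values strayed from the DesWT mean by a root mean square of 0.406, where the same measure was 0.193 to 0.259 in the other DesWT mice and 0.117 to 0.177 in the DesKO mice. Its values summed on the linear scale were 1.48 times the median of the libraries, against 0.949 to 1.06 in the others. The SD was larger in DesWT than in DesKO for 82.9% of tested genes, and for all 10 regulators. Values without DesWT mouse 3 are therefore given beside the results that they move by over 1.5 times or whose call they change.

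Of the 10 regulators, 1 passed the test across all genes, Srf, which was lower in DesKO. That is 10% of the members, while 13.7% of all tested genes were called, 7.7% higher and 5.99% lower in DesKO, so the members as a set were called no more often than the tested genes as a whole. The mean was higher in DesKO for 6 and lower for 4, and their median difference was 0.15 against -0.0029 for all tested genes. The 5 DesKO values lay wholly above or below the 5 DesWT values for 3 members (Srf, Yap1 and Tead2), as they did for 14.4% of tested genes. The 95% interval of the difference stayed within 1.5-fold in either direction (0.585 rlog units) for 6 members.

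**Figure D1:**
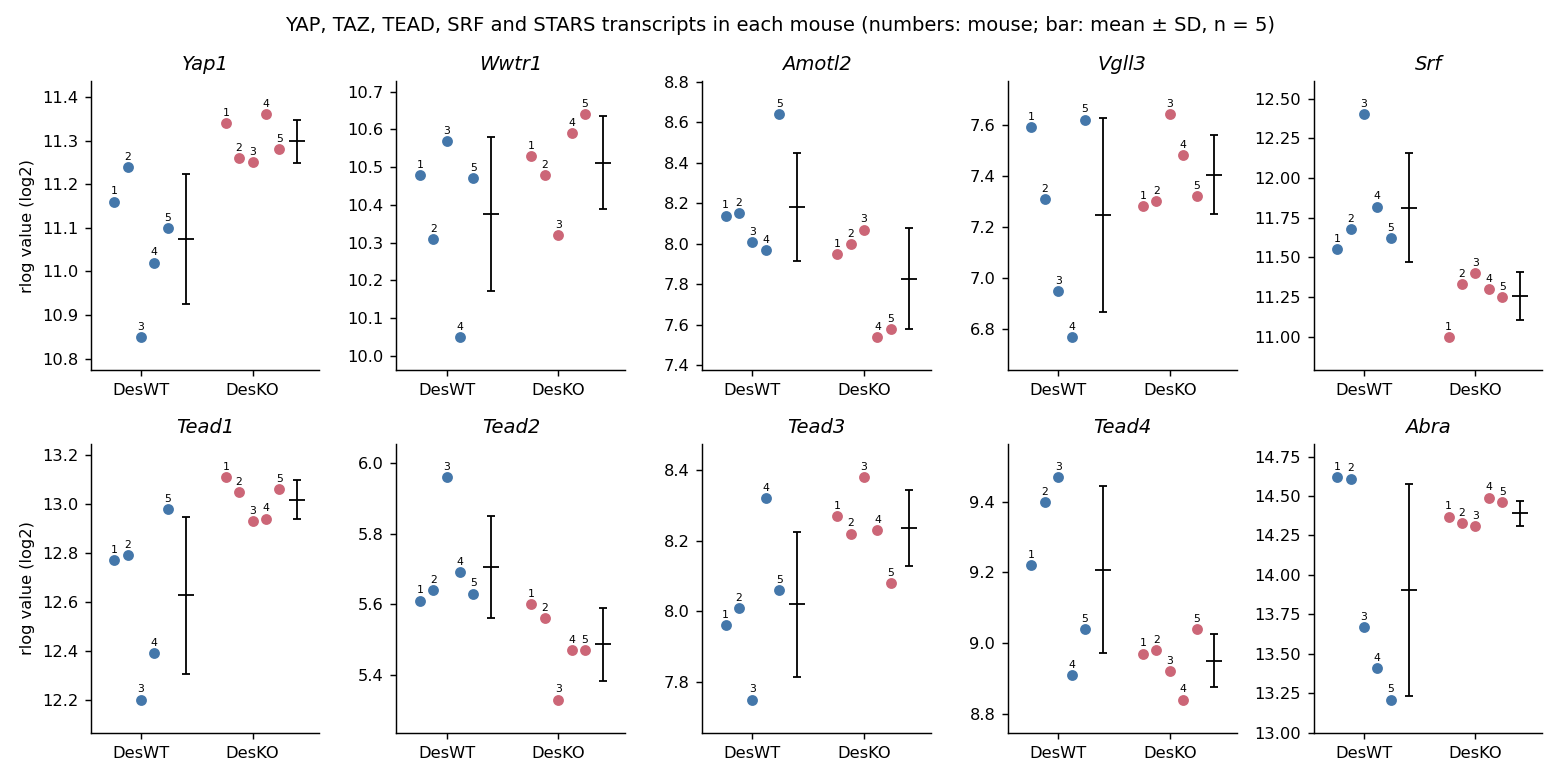
Rlog value (log2 scale, each panel with its own axis) of the 10 regulators in each of the 5 DesKO and 5 DesWT mice. Points carry the mouse number and the bar with whiskers gives the mean ± SD (n = 5). Srf, Yap1 and Tead2 show no overlap between the genotypes, and DesWT values of Abra spread over 1.41 units against 0.18 units in DesKO.

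Srf encodes the DNA-binding factor on which the MRTF and ternary complex cofactors act. The gene (ENSMUSG00000015605) lies on chr17:46548329-46556175, minus strand. Its rlog values were 11.00, 11.33, 11.40, 11.30 and 11.25 in DesKO mice 1 to 5 and 11.55, 11.68, 12.40, 11.82 and 11.62 in DesWT mice 1 to 5. Every DesKO mouse lay below every DesWT mouse, with a gap of 0.157 between the nearest values, and DesWT mouse 3 was the highest. The means were 11.26 ± 0.15 and 11.81 ± 0.34 (SD, n = 5 each), and Srf fell by 0.56 in DesKO (SE 0.15, 95% interval -0.88 to -0.24), a ratio of 0.678. The limma adjusted p was 0.022, and the exact two-sided permutation test gave 0.00794, the smallest value that 5 against 5 mice allow. Without DesWT mouse 3 the difference was -0.41 (adjusted p = 0.00532). The call was lost without DesKO mouse 1 (-0.50, adjusted p = 0.0634) or DesKO mouse 5 (-0.56, adjusted p = 0.0514), and when no expression limit was set (adjusted p = 0.064). The promoter window of Srf printed above holds the CArG letters that SRF itself is known to recognise.

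Yap1 (ENSMUSG00000053110, chr9:7931999-8004596, minus strand) was slightly higher in each DesKO mouse than in any DesWT mouse. Its values were 11.34, 11.26, 11.25, 11.36 and 11.28 in DesKO mice 1 to 5 and 11.16, 11.24, 10.85, 11.02 and 11.10 in DesWT mice 1 to 5. The nearest values of the groups were 0.008 apart. The means of 11.30 ± 0.05 and 11.08 ± 0.15 (SD, n = 5 each) differed by 0.22 (SE 0.09, 95% interval 0.03 to 0.41), a ratio of 1.17. This difference did not pass the test across all genes (limma adjusted p = 0.119). The exact permutation test for Yap1 alone gave an unadjusted 0.00794. Any full separation of 5 against 5 mice gives that value, and 14.4% of tested genes separated so. An antisense gene, Gm20416, shares 116 bp of exon with Yap1, and the strand setting of the counting was not given in the sources used here.

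Wwtr1, which encodes TAZ, the paralog of YAP, showed no comparable separation. The gene (ENSMUSG00000027803) lies on chr3:57455649-57575910, minus strand. It measured 10.53, 10.48, 10.32, 10.59 and 10.64 in DesKO mice 1 to 5 and 10.48, 10.31, 10.57, 10.05 and 10.47 in DesWT mice 1 to 5. The groups overlapped over most of their ranges, and DesWT mouse 4 was the lowest. The difference was 0.14 (SE 0.11, 95% interval -0.10 to 0.37, limma adjusted p = 0.444), and 0.06 without DesWT mouse 4. To ask whether the coactivators shifted relative to each other, Wwtr1 minus Yap1 was taken within each mouse, which removes any factor common to a library. It was -0.79 ± 0.10 in DesKO and -0.70 ± 0.28 in DesWT (SD, n = 5 each), a difference of -0.09 (exact permutation test, p = 0.619, adjusted over 3 such within-mouse differences 0.619). Without DesWT mouse 3, in which it was -0.28, the difference was 0.02.

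Amotl2 encodes an angiomotin that binds YAP, and its own transcription is known to respond to YAP. The gene (ENSMUSG00000032531) lies on chr9:102716672-102733418, plus strand. Its values were 7.95, 8.00, 8.07, 7.54 and 7.58 in DesKO mice 1 to 5 and 8.14, 8.15, 8.01, 7.97 and 8.64 in DesWT mice 1 to 5. Mice 4 and 5 of DesKO were the lowest and DesWT mouse 5 the highest, with overlap between the groups around 8.0. The difference was -0.35 (SE 0.15, 95% interval -0.68 to -0.03, limma adjusted p = 0.144, exact permutation p = 0.0476).

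Tead1 was the most abundant TEAD transcript per length of exon in both genotypes. It lies on chr7:112679318-112906807, plus strand (ENSMUSG00000055320). Its rlog values were 13.11, 13.05, 12.93, 12.94 and 13.06 in DesKO mice 1 to 5 and 12.77, 12.79, 12.20, 12.39 and 12.98 in DesWT mice 1 to 5. In all, 3 of the 5 DesKO mice lay above every DesWT mouse, and DesWT mouse 5 was the one that reached into the DesKO range. The means were 13.02 ± 0.08 and 12.63 ± 0.32 (SD, n = 5 each), and the difference of 0.39 (SE 0.14, 95% interval 0.10 to 0.69), a ratio of 1.31, gave a limma adjusted p of 0.0753. Without DesWT mouse 5 it was 0.48 and passed the threshold (adjusted p = 0.0279).

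Tead4, a TEAD gene linked to myogenic differentiation, lies on chr6:128224288-128300823, minus strand (ENSMUSG00000030353). It measured 8.97, 8.98, 8.92, 8.84 and 9.04 in DesKO mice 1 to 5 and 9.22, 9.40, 9.47, 8.91 and 9.04 in DesWT mice 1 to 5. DesWT mice 1 to 3 lay above every DesKO mouse and DesWT mice 4 and 5 within the DesKO range. The difference was -0.26 (SE 0.11, 95% interval -0.50 to -0.02, limma adjusted p = 0.152).

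Set against each other within each mouse, Tead4 and Tead1 separated the genotypes. Tead4 minus Tead1 was -4.15, -4.07, -4.01, -4.11 and -4.02 in DesKO mice 1 to 5 and -3.56, -3.39, -2.73, -3.47 and -3.94 in DesWT mice 1 to 5. Every DesKO mouse had the lower Tead4 level relative to Tead1. The means of -4.07 ± 0.06 and -3.42 ± 0.44 (SD, n = 5 each) differed by -0.65 (exact permutation test, p = 0.00794, adjusted over the 3 within-mouse differences 0.0238). DesWT mouse 3 had the smallest distance, and without it the difference was -0.48 (adjusted p = 0.0476, exact permutation test). Among the TEAD genes Tead1 had the largest rise and Tead4 the largest fall, so this pair joins the extremes of the same data. The adjustment covers only the 3 pairs. How often other pairs of genes separate the genotypes was not tested, while 14.4% of single tested genes did.

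The remaining TEAD genes were expressed at lower levels. Tead2 (ENSMUSG00000030796, chr7:45215753-45233644, plus strand), known mainly from embryonic tissue, measured 5.60, 5.56, 5.33, 5.47 and 5.47 in DesKO mice 1 to 5 and 5.61, 5.64, 5.96, 5.69 and 5.63 in DesWT mice 1 to 5. Each DesKO value lay below each DesWT value, by as little as 0.010. The difference of -0.22 (SE 0.11, 95% interval -0.45 to 0.02) had a limma adjusted p of 0.219. The unadjusted exact permutation p of 0.00794 only restates that separation. Tead3 (ENSMUSG00000002249, chr17:28331671-28350817, minus strand) measured 8.27, 8.22, 8.38, 8.23 and 8.08 in DesKO mice 1 to 5 and 7.96, 8.01, 7.75, 8.32 and 8.06 in DesWT mice 1 to 5. The groups overlapped through DesWT mouse 4, and the difference was 0.22 (SE 0.11, 95% interval -0.03 to 0.46, limma adjusted p = 0.233).

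Vgll3 (ENSMUSG00000091243, chr16:65815257-65866368, plus strand) measured 7.28, 7.30, 7.64, 7.48 and 7.32 in DesKO mice 1 to 5 and 7.59, 7.31, 6.95, 6.77 and 7.62 in DesWT mice 1 to 5. The DesWT mice held both the lowest values and values near the top of the range. The difference was 0.16 (SE 0.16, 95% interval -0.20 to 0.51, limma adjusted p = 0.578). It was 0.08 without DesWT mouse 3, 0.04 without DesWT mouse 4, 0.25 without DesWT mouse 5 and 0.10 without DesKO mouse 3.

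**Figure D2:**
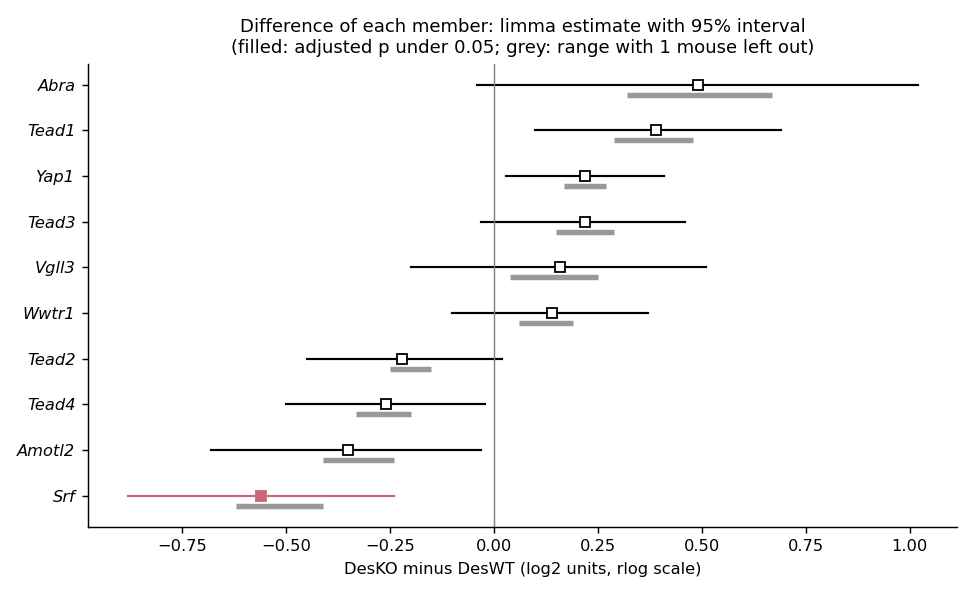
Difference DesKO minus DesWT in rlog value (log2 scale) for each of the 10 regulators, with its 95% interval as a line and the range over leave-one-out fits as a grey bar. The filled red symbol marks the adjusted p under 0.05, which Srf alone reached at -0.56, and the other intervals run from -0.68 at the lowest (Amotl2) to 1.02 at the highest (Abra).

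Abra encodes STARS, and was the most abundant of the 10 per length of exon. The gene (ENSMUSG00000042895) lies on chr15:41864076-41869720, minus strand. It measured 14.37, 14.33, 14.31, 14.49 and 14.46 in DesKO mice 1 to 5 and 14.62, 14.61, 13.67, 13.41 and 13.21 in DesWT mice 1 to 5. The DesKO mice lay within 0.18 of each other, whereas DesWT mice 1 and 2 lay above all of them and DesWT mice 3 to 5 below all of them, over a range of 1.41. The difference of means was 0.49 (SE 0.25, 95% interval -0.04 to 1.02, limma adjusted p = 0.219, exact permutation p = 0.167). It was 0.32 without DesWT mouse 5, 0.12 with sample weights and 0.24 with Y-linked transcripts as a covariate. A shift between the genotypes was thus not detectable against the spread of the DesWT mice, and the interval leaves room for a difference of up to 1.02.

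Relative to Srf, Abra was 3.37, 3.01, 2.91, 3.19 and 3.21 units higher in DesKO mice 1 to 5 and 3.07, 2.93, 1.27, 1.58 and 1.59 units higher in DesWT mice 1 to 5. DesWT mice 1 and 2 lay in or close to the DesKO range and the other DesWT mice well below it. The means of 3.14 ± 0.18 and 2.09 ± 0.84 (SD, n = 5 each) differed by 1.05 (exact permutation test, p = 0.0397, adjusted over the 3 within-mouse differences 0.0595), which did not pass the correction. Without DesWT mouse 3 the difference was 0.84 (adjusted p = 0.119, exact permutation test). It was 1.29 without DesWT mouse 1 (adjusted p = 0.0476, exact permutation test). Among the members Abra had the largest rise and Srf the largest fall, so this pair also joins extremes of the same data. The adjustment covers only the 3 pairs.

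**Figure D3:**
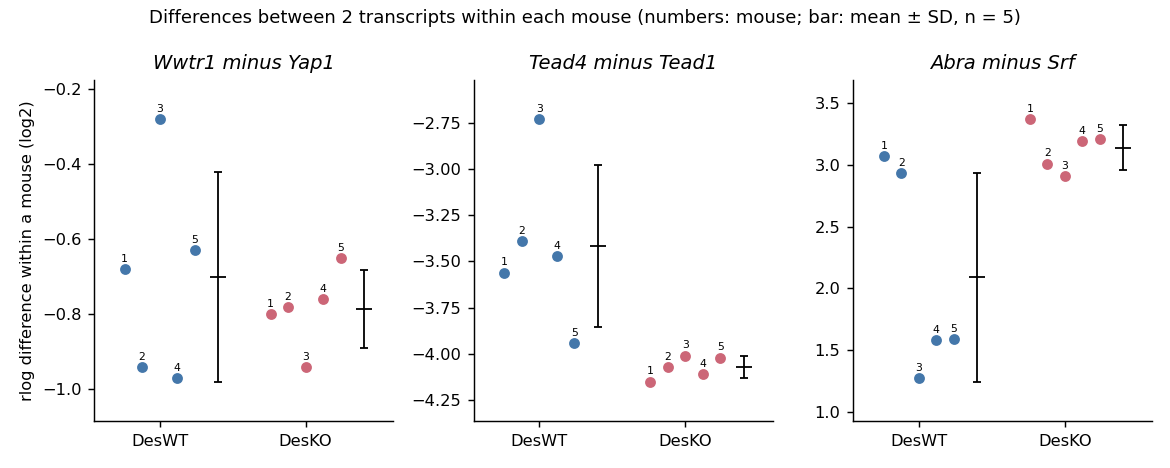
Difference in rlog value (log2 scale) between a pair of genes in the same mouse, for Wwtr1 minus Yap1, Tead4 minus Tead1 and Abra minus Srf, with the mouse number at each point and the mean ± SD (n = 5) of each genotype. Tead4 minus Tead1 does not overlap between DesKO (-4.15 to -4.01) and DesWT (-3.94 to -2.73), while the other pairs do.

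Levels of different genes can be set beside each other only per length. With the log2 of the exon length in kb subtracted, the mean level in DesWT was 12.33 ± 0.67 for Abra, 10.28 ± 0.34 for Srf, 8.86 ± 0.32 for Tead1, 8.12 ± 0.21 for Wwtr1 and 7.86 ± 0.15 for Yap1. These 5 were followed by Tead4 at 7.36 ± 0.23, Amotl2 at 5.53 ± 0.27, Tead3 at 5.27 ± 0.21, Vgll3 at 4.42 ± 0.38 and Tead2 at 3.45 ± 0.14 (rlog per kb, SD, n = 5). Neighbours differed by less than their summed SD for Wwtr1 and Yap1 and for Amotl2 and Tead3. In DesKO the order was the same except that Tead3, at 5.49 ± 0.11, stood above Amotl2, at 5.18 ± 0.25.

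The genes around the members were read from 6 lists of pathway genes. Of all tested genes 13.7% were called, 7.7% higher and 5.99% lower in DesKO. The called share was 10.5% of the tested Hippo genes, 36.4% of the YAP and TEAD partners and 25% of their targets. It was 20% of the genes upstream of SRF, 23.8% of the cytoskeletal SRF targets without Des and 55.6% of the immediate-early targets without Egr3. No set test was run on these short lists, and their counts moved with the mice used. With 1 mouse left out, 0 to 5 YAP and TEAD partners were called, against 4 with all mice. With no expression limit 1 partner was called. For genes upstream of SRF it was 2 to 6 against 4, and for Hippo genes 1 to 3 against 2. YAP and TEAD targets gave 4 to 6 against 5. Cytoskeletal SRF targets with Des gave 4 to 6 against 6, and immediate-early targets with Egr3 6 to 7 against 6. Among the 20 kinases, scaffolds and upstream genes of the Hippo pathway, of which 19 were tested, 1 was higher and 1 lower in DesKO. Mob1b, which activates the LATS kinases, rose by 0.73 (SE 0.16, limma adjusted p = 0.00729), and Wwc2, of the KIBRA family upstream of LATS, fell by 0.42 (SE 0.11, adjusted p = 0.0173, or 0.0501 without DesKO mouse 4). The kinases that phosphorylate YAP did not pass the test, with a difference of -0.28 for Lats1 (adjusted p = 0.106) and 0.15 for Lats2 (adjusted p = 0.444), or -0.18 and 0.07 without DesWT mouse 3. With sample weights Lats1 was called, at -0.19 (limma adjusted p = 0.0253). Of the 6.971 kb of exon of Lats2, 2955 bp are shared with Gm49361, a gene on the same strand. Wwc2 shares 995 bp of exon with an antisense gene, Cldn22. The median of the list was 0.06, and -0.02 without DesWT mouse 3, when 1 gene was higher and 2 lower.

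Of 11 tested genes among 12 further YAP and TEAD partners, 3 were higher and 1 lower in DesKO, with a median of 0.09. These were 3 and 2, with a median of 0.04, without DesWT mouse 3. Vgll2, the vestigial-like TEAD cofactor of skeletal muscle, measured 10.86 to 11.51 in DesKO and 10.06 to 10.85 in DesWT, and rose by 0.63 (SE 0.16, limma adjusted p = 0.0164). Limd1, a LIM protein that binds LATS, fell by 0.35 (SE 0.09, adjusted p = 0.0173). Vgll2 lost the call without DesKO mouse 2 (0.56, adjusted p = 0.0511) or with no expression limit (adjusted p = 0.0519), and Limd1 without DesKO mouse 2 (adjusted p = 0.0502) or mouse 5 (adjusted p = 0.0571). Amot, the founding angiomotin, rose by 0.45 (adjusted p = 0.0284) and Ywhaz, a 14-3-3 protein that can hold phosphorylated YAP, by 0.59 (adjusted p = 0.044), and these calls were lost in 9 and 11 of 19 alternative settings. Without DesWT mouse 3, Ywhaz rose by 0.39 (limma adjusted p = 0.00517). Amot was thus called higher in DesKO in the main fit, while the estimate for Amotl2, which did not pass, was -0.35. Amotl1, named here as the other angiomotin of the list, did not pass either (-0.25, limma adjusted p = 0.134).

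The list of 21 genes known from other cells as targets of YAP and TEAD, 20 of them tested, had 4 genes higher and 1 lower in DesKO and a median of 0.19. Without DesWT mouse 3 the median was 0.11, with 5 genes higher and 1 lower. In all mice the means were higher in DesKO for 17 genes and lower for 3. These counts leave out Amotl2, which is also known to respond to YAP but was treated as a member. Its difference was -0.35 and did not pass the test. Gadd45a, a stress-induced growth arrest gene, measured 10.43 to 10.92 in DesKO and 8.77 to 10.10 in DesWT, and rose by 1.05 (SE 0.20, limma adjusted p = 0.0029). Ccn2, which encodes connective tissue growth factor, measured 10.48 to 11.20 in DesKO and 9.22 to 10.34 in DesWT, and rose by 1.01 (SE 0.21, adjusted p = 0.00497). Neither gene overlapped between the genotypes.

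Tgfb2, a transforming growth factor, rose by 0.58 (adjusted p = 0.00489), Fjx1, a Golgi kinase acting on the Fat and Dachsous cadherins, rose by 0.48 (limma adjusted p = 0.00521), and Arhgef17, a guanine nucleotide exchange factor, fell by 0.29 (adjusted p = 0.0483, lost in 14 of 19 alternative settings). The most used reporters of YAP activity beside Ccn2 did not pass, with 0.54 for Ccn1 (95% interval 0.07 to 1.01, adjusted p = 0.123) and 0.47 for Ankrd1 (95% interval -0.05 to 0.98, adjusted p = 0.226). Ccn1 was called without DesWT mouse 1 (0.69, adjusted p = 0.0409) and with the replicate number as a block (0.54, adjusted p = 0.031), and was 0.18 with sample weights. Ankrd1 was 0.24 without DesWT mouse 5 and 0.08 with sample weights. Ccn2 shares 665 bp and Gadd45a 337 bp of exon with an antisense gene.

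**Figure D4:**
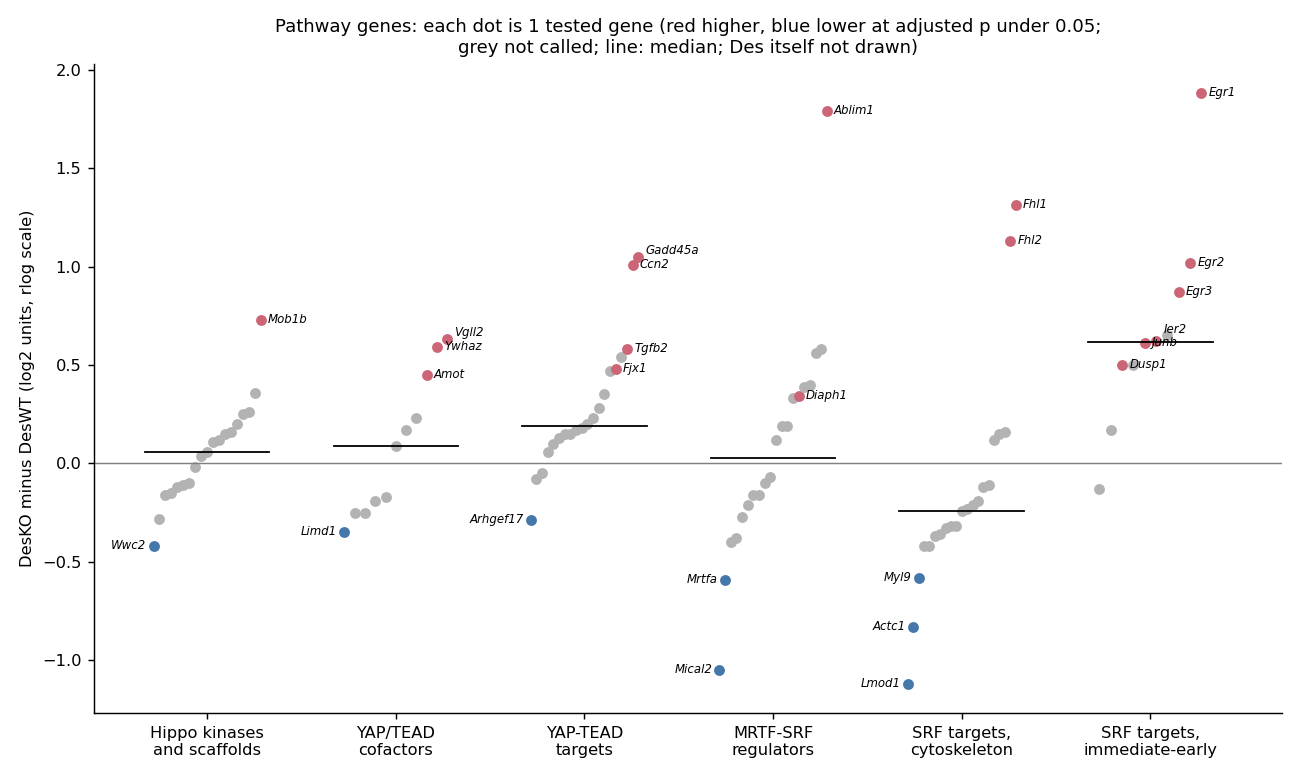
Difference DesKO minus DesWT in rlog value (log2 scale) for every tested gene of the 6 pathway lists. Red points are called higher, blue points called lower and grey points not called, the line is the median of each list, and Des is not drawn. The immediate-early list, drawn with Egr3, has the highest median, 0.62, and the cytoskeletal SRF list without Des the lowest, -0.24.

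Upstream of SRF, 22 genes that govern actin assembly or act as SRF cofactors were listed and 20 tested, of which 2 were higher and 2 lower in DesKO, with a median of 0.02. These were 4 and 2, with a median of -0.01, without DesWT mouse 3. Ablim1 encodes an actin-binding LIM protein, and its values were 13.17, 13.23, 13.32, 12.90 and 12.89 in DesKO mice 1 to 5 and 11.08, 11.35, 11.42, 11.24 and 11.45 in DesWT mice 1 to 5. All DesKO values lay above all DesWT values, and Ablim1 rose by 1.79 (SE 0.11, limma adjusted p = 3.163e-07).

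Mical2, which oxidises nuclear actin and thereby favours MRTF in the nucleus, measured 10.65, 10.66, 11.05, 10.76 and 10.44 in DesKO mice 1 to 5 and 11.51, 11.81, 12.27, 11.82 and 11.39 in DesWT mice 1 to 5. All DesKO values lay below all DesWT values, and Mical2 fell by 1.05 (SE 0.16, limma adjusted p = 5.167e-04). Of the cofactors themselves, Mrtfa fell by 0.59 (SE 0.19, adjusted p = 0.0489), a call lost in 14 of 19 alternative settings and without DesWT mouse 3 (-0.53, adjusted p = 0.0688), and the estimate for Mrtfb was 0.19 (adjusted p = 0.448), or 0.07 without DesKO mouse 1 and 0.08 without DesWT mouse 3. The formin gene Diaph1 rose by 0.34 (adjusted p = 0.0362, lost in 12 of 19 settings). Srf, Mical2 and Mrtfa were thus lower in DesKO, while Abra was not called.

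Among the 22 cytoskeletal and contractile SRF targets, all tested, 2 were higher and 4 lower in DesKO, the knocked-out gene Des being one of the latter. Without Des the median was -0.24, with 16 means lower and 5 higher. Lmod1, leiomodin of smooth muscle, fell by 1.12 (SE 0.24, limma adjusted p = 0.00693), Myl9, a regulatory myosin light chain of smooth muscle and non-muscle cells, by 0.58 (adjusted p = 0.0257, lost in 6 of 19 alternative settings, without DesKO mouse 1, 3, 4 or 5 among them) and Actc1, cardiac actin, by 0.83 (adjusted p = 0.0352). Actc1 lost the call in 10 of 19 alternative settings, without DesWT mouse 3 among them (-0.68, adjusted p = 0.0511), and its sequence is close to that of Acta1, so that reads may be split between them. The FHL genes were higher. Fhl1, a LIM protein of the sarcomere, measured 17.24 to 17.60 in DesKO and 15.60 to 16.40 in DesWT and rose by 1.31 (SE 0.16, adjusted p = 9.879e-05), and Fhl2 rose by 1.13 (SE 0.18, adjusted p = 9.028e-04).

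Of the 10 immediate-early SRF targets, Egr3 had a DesWT mean below the expression limit and was tested only through its DesKO values, so it is left out of the counts. Among the other 9, limma called 5 higher and 0 lower in DesKO (0 lower also at an unadjusted p under 0.05), with a median of 0.61. Without DesWT mouse 3 the counts were 5 and 0 and the median was 0.50. The zinc finger genes Egr1 and Egr2 rose by 1.88 (SE 0.46, adjusted p = 0.0156) and 1.02 (SE 0.15, adjusted p = 4.474e-04). Egr1 was 0.98 with sample weights (adjusted p = 0.0348) and lost the call with no expression limit (adjusted p = 0.0626). Dusp1, a MAP kinase phosphatase, rose by 0.50 (adjusted p = 0.00588), Ier2 by 0.62 (adjusted p = 0.0108) and the AP-1 gene Junb by 0.61 (adjusted p = 0.0134).

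Egr1, like Abra, spread more widely in DesWT than in DesKO. It measured 9.83, 10.53, 10.37, 9.84 and 10.14 in DesKO mice 1 to 5 and 10.15, 9.05, 7.21, 7.41 and 7.49 in DesWT mice 1 to 5. DesWT mouse 1 lay in the DesKO range, DesWT mouse 2 below it, and DesWT mice 3 to 5 lower still. Fos, chosen here after its values were seen, measured 9.99 and 9.68 in DesWT mice 1 and 2, 7.86 to 8.10 in DesWT mice 3 to 5 and 8.83 to 10.05 in DesKO, and it did not pass the test (0.65, SE 0.39, limma adjusted p = 0.309). Ccn1 stood at 10.16 and 10.06 in DesWT mice 1 and 2, at 9.13 to 9.35 in DesWT mice 3 to 5 and at 9.72 to 10.60 in DesKO. In Abra, Egr1, Fos and Ccn1 DesWT mice 3 to 5 thus lay below every DesKO mouse. What sets those mice apart from DesWT mice 1 and 2 was not tested.

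**Figure D5:**
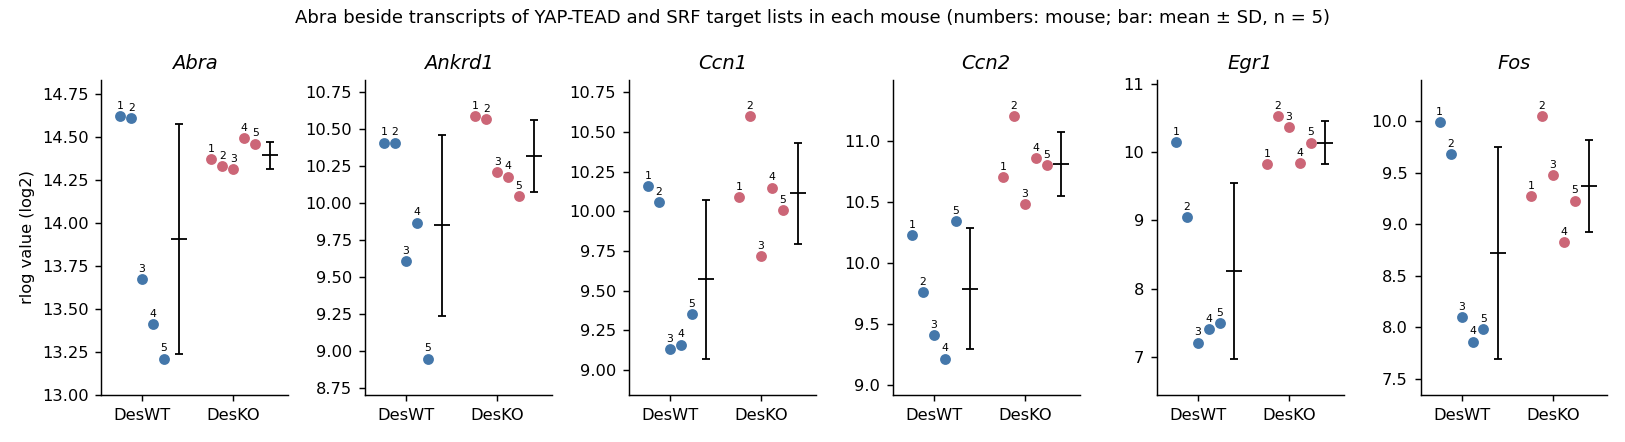
Rlog value (log2 scale, each panel with its own axis) of Abra, of the YAP and TEAD targets Ankrd1, Ccn1 and Ccn2 and of the SRF targets Egr1 and Fos in the 5 DesKO and 5 DesWT mice, with the mouse number at each point and the mean ± SD (n = 5). In all 6 panels DesWT mice 3 and 4 lie below every DesKO mouse, and Ccn2 alone separates the genotypes fully.

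In whole muscle, fewer cells of a type and less RNA per cell cannot be told apart. The marker counts given here stand beside 7.7% of all tested genes called higher and 5.99% called lower in DesKO. All 44 marker genes of 7 cell types lay above the expression limit and none was at 0. This shows that the transcripts were detected, and cannot tell gastrocnemius from plantaris. The summed level of 8 myofibre markers was 22.14 to 22.36 in DesKO and 22.39 to 23.31 in DesWT, with 1 gene called higher (Myh2) and 1 lower (Myh4). Without DesWT mouse 3, 2 were called higher and 1 lower, and the median difference was -0.3, against -0.45 with it. The summed level of 6 endothelial markers was 11.55 to 12.03 in DesKO and 12.03 to 12.37 in DesWT, with 3 called lower (Cdh5, Pecam1 and Tek), or 2 without DesWT mouse 3. Both sums were thus lower in DesKO, although the endothelial ranges met at 12.03. Of the 8 myofibre markers, 6 had a lower and 2 a higher mean in DesKO. The sums are taken on the linear scale, where the most abundant transcripts weigh most and DesWT mouse 3 stood at 1.48 times the median of the libraries. Sums without that mouse are not given here.

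Of 8 fibroblast markers 4 were called higher in DesKO, as Ccn2 was (Lum, Col1a1, Col3a1 and Mfap5), and 2 without DesWT mouse 3. Their summed level overlapped between the genotypes, at 13.74 to 14.35 against 13.32 to 14.27. Smooth muscle and pericyte markers stand beside the smooth muscle genes Lmod1 and Myl9. The summed level of these markers was 13.31 to 13.63 in DesKO and 13.54 to 14.23 in DesWT. Of the 6 markers, 1 was called higher (Cspg4) and 1 lower (Kcnj8). Acta2 and Myh11 of this list, and Acta1 of the myofibre markers, are also in the list of cytoskeletal SRF targets. Satellite cell markers summed to 10.64 to 10.76 against 10.37 to 10.92, with 1 of 5 called higher (Chodl). No macrophage or Schwann cell marker was called by limma (unadjusted p under 0.05 for 0 of 6 and 1 of 5), with summed levels of 11.00 to 11.48 against 10.88 to 11.35 and of 9.23 to 9.61 against 9.04 to 9.64. The part of these cell types in the differences of the 10 regulators was not tested.

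Finally, the genes whose profile over the 10 mice lay closest to that of Srf, the called member, were listed. With each gene centred on its own mean, Agpat1, an acyltransferase of phospholipid synthesis, was nearest with a root mean square difference of 0.0651, against a median of 0.419 over all tested genes. It was followed by Tpcn1, an endolysosomal ion channel (0.0707), Wdtc1 (0.0775), the kinase gene Dyrk1b (0.078) and Ehd1, a gene of endocytic recycling (0.0781). The measure uses the genotypes' values, so what these genes share with Srf over the 10 mice is fixed by their choice.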

How the data were processed

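The deposited table holds 1 log2 value (rlog) for each of 54232 genes in each of 10 mice. Per the labels and the submitters' processing notes, the authors trimmed reads of a stranded mRNA library with cutadapt 2.5, aligned them to GRCm38 with STAR 2.5.4a, counted them with featureCounts of Subread 1.6.1 and transformed the counts to rlog values with DESeq2. Counts are not given in the table, so depth per mouse is unknown. The strand setting and the rlog options are not given in the sources used here. The methods mention pooled muscle RNA, whereas the table has 5 separate columns per genotype, so p-values measure the spread between these columns.

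Genes with a mean of at least the log2 of 10 were fitted with limma 3.58.1 in R 4.3.3 (trend, two-sided), and p-values were adjusted by Benjamini-Hochberg over 14289 genes, with calls at 0.05. The study's count test could not be run on rlog values. Within-mouse differences and single members were tested by exact permutation over mice. Lists, including 44 cell type markers, were described by counts. Gene positions and exon lengths come from GENCODE M21 (GRCm38), promoter windows from RefSeq. Named were all members, up to 6 called genes per pathway list (at least 2 genes), fixed partners, and the 5 genes nearest to a called member. The script was tested on simulated data. Alternatives were other expression limits, centring, quantile normalization, a prior without trend, sample weights, a covariate of Y-linked transcripts, the replicate number as a block, a stricter threshold and each mouse left out. Y-linked transcripts were detected in every mouse, so this covariate is not a contrast of the sexes. Their mean rlog value ran from 9.52 in DesWT mouse 3 to 10.62 in DesWT mouse 1. Sample weights ran from 0.10 for DesWT mouse 3 to 4.21 for DesKO mouse 4. Counting lists without genes whose mean in 1 genotype was under the limit was added after seeing the data. The members and lists were chosen with earlier results of these data known.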

Additional observations from a re-analysis of the deposited data

Results flagged for a closer look

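In each genotype, the highest or lowest of the 5 mice was compared with its nearest neighbour for every member, named gene and within-mouse difference, over 90 groups in all, and in 6 of them that mouse lay far from the others by Dixon's criterion. Chance gives such a mouse in about 1 of 20 groups, or about 4.5 here. DesWT mouse 3 accounted for 3 of the 6. It was the highest DesWT mouse for Tead2 at 5.96 (next 5.69) and for Des at 17.74 (next 16.55), and the lowest for Ywhaz at 8.78 (next 9.70). DesWT mouse 5 was the highest for Amotl2 at 8.64 (next 8.15). Among DesKO mice, mouse 3 was the highest for Egr2 at 6.06 (next 5.55) and mouse 1 the highest for Mrtfb at 10.91 (next 10.43).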

How the results depend on the processing

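Srf was lower in DesKO under all 19 alternatives, with a difference of -0.62 to -0.38 and a limma adjusted p of 0.0011 to 0.064. No member was called without an expression limit (0 of 10, Srf adjusted p = 0.064) or at an adjusted p under 0.01 (0 of 10), 4 were called with sample weights (Srf, Amotl2, Tead4 and Tead1), and 0 to 2 when 1 mouse was left out. Over all genes the count of calls was 4220 with sample weights, 994 at the stricter threshold, and 1400 to 2496 with 1 mouse left out, against 1956. The difference of Vgll3 turned to -0.01 with sample weights and to -0.01 with the Y-linked covariate. With sample weights and with that covariate Yap1 stood at 0.14 and 0.14 and Tead1 at 0.22 and 0.25, and Tead2 at -0.14 with the covariate. Amotl2 was -0.53 and Tead4 -0.32 with sample weights. Median centring gave 0.09 for Wwtr1, and quantile normalization 0.09 for Vgll3. Abra minus Srf, a pair that joins extremes of the same data, gave 1.11 after quantile normalization (exact permutation test, adjusted p = 0.0476). With 1 mouse left out Abra minus Srf was 0.84 to 1.29, Tead4 minus Tead1 -0.78 to -0.48, and Wwtr1 minus Yap1 -0.15 to 0.02. The cause of these shifts was not tested. Mice of the same number did not deviate together (r of -0.219 to 0.0673, 0 of 5 DesKO mice closest to their own number). With the number as a replicate block 1579 genes and 1 member were called, and the exact sign-flip test of Tead4 minus Tead1 gave -0.65 with an adjusted p of 0.0938, where 0.0625 is the smallest unadjusted p. Without counts, weakly expressed members such as Tead2 cannot be given a counting error.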
